A study of Citrus unshiu with 2 samples.

Results

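The 6 genes of lipid transfer, wax and surface lipid metabolism described here were measured in stems of Citrus unshiu, the satsuma mandarin, a citrus tree grown for seedless fruit. They were taken by gene identifier, as 6 of the 23159 genes deposited, and carry these names in the deposited descriptions: non-specific lipid-transfer protein 1, non-specific lipid-transfer protein 4, a 3-ketoacyl-CoA synthase, long chain acyl-CoA synthetase 1, a GDSL esterase/lipase and ABC transporter G family member 22. Wild-type trees grew under cover in root-limiting containers, and 20 trees were assigned to normal watering and 20 to light drought, in which the soil dried to a moisture of about 15%. Mature stems of shoots labelled Day 75 gave 1 RNA-seq library per treatment, called the control and the light drought library below. The number of trees in each was not stated, and the title of the light drought sample gives its treatment as 75 d. A figure of 5 months is recorded for both samples. Because the genes were picked for their difference between these same libraries, their values are a description and no test was made.

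The outer surface of a plant stem is covered by a cuticle of cutin, a polyester of fatty acids, and of waxes built from very-long-chain fatty acids. In epidermal cells long chain acyl-CoA synthetases activate fatty acids, 3-ketoacyl-CoA synthases lengthen them, and ABC transporters of the G family move lipids through the plasma membrane. Non-specific lipid-transfer proteins are small secreted proteins that bind lipids in the cell wall, and GDSL enzymes cut or join lipid esters, among them cutin. In many plants the cuticle limits water loss, and its synthesis responds to drought.

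Reads assigned to genes numbered 32856618 in the control library and 31760704 in that of light drought. Levels are in RPKM, that is, reads divided by the exon length of the gene and by these totals. At this depth, 3 reads on a member correspond to an RPKM between 0.0303 and 0.138. Ratios are log2((light drought + 0.5)/(control + 0.5)), which understates the change of low genes, and the words higher and lower, used of a count of genes, mean at least 2-fold by this measure among the 15654 genes that reached an RPKM of 1 in either library. Intervals are 95% intervals from the recovered reads, without the 0.5, so that a low gene may have its log2 ratio outside its interval. They treat each read as independent and cover counting error alone, with no account of variation among trees.

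Of the 6 genes, 4 were lower and 2 were higher in light drought stems. Over all kept genes 2.12% were lower and 0.882% higher, 3.00% in all, and the members' counts carry no weight against these shares since the members were chosen from this contrast. All 6 genes reached an RPKM of 1 in at least 1 library, and 5 reached it in both. Summed over the 4 lower genes, RPKM was 45.2 in the control against 7.49 under light drought, and over the 2 higher genes 14.0 against 44.8. Long chain acyl-CoA synthetase 1 passed the minimum in the control library alone. None of the 6 gene models overlapped another gene model.

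**Figure D1:**
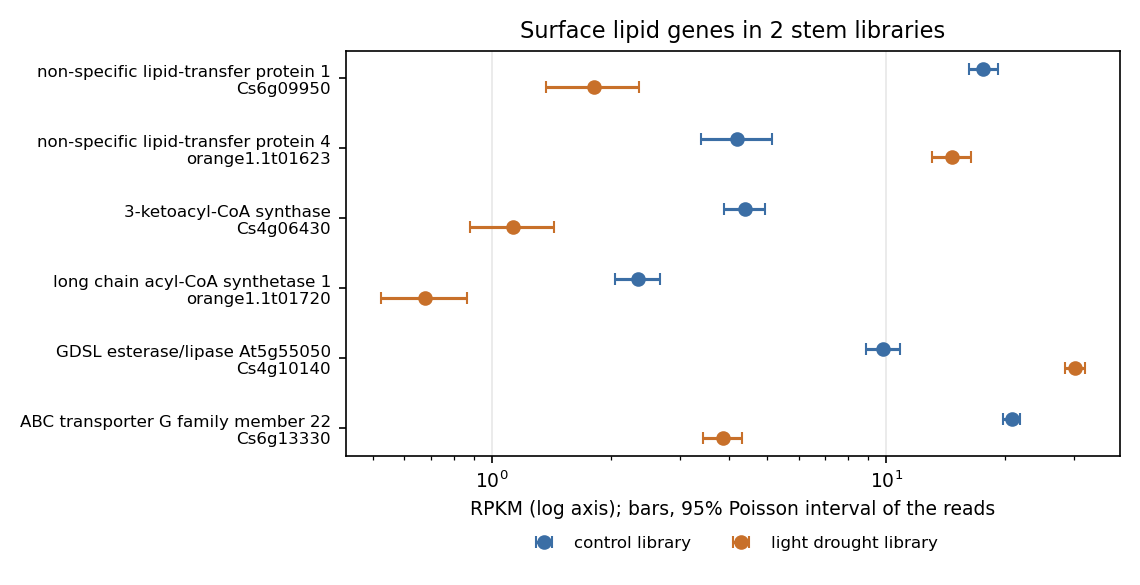
RPKM (log axis) of the 6 surface lipid genes in the control library (blue) and the light drought library (orange), with the 95% Poisson interval of the reads. The intervals of the libraries are apart for each gene, with lipid-transfer protein 4 and the GDSL esterase/lipase to the right in light drought and the other 4 to the left.

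The lipid-transfer proteins went in opposite directions. Non-specific lipid-transfer protein 1 (Cs6g09950) was at RPKM 17.6 in the control, from 552 reads, and at 1.82 in light drought, from 55 reads. It was thus 9.70-fold lower by plain RPKM, with a log2 ratio of -2.97 and a counting interval of -3.71 to -2.88. Ordered by RPKM among all 23159 genes, it took place 4862 in the control and place 13653 in light drought. Its protein carries a Pfam domain shared with protease inhibitors and seed storage proteins, the family of classical lipid-transfer proteins. The gene lies on chromosome 6 at 11645182 to 11646234, plus strand, and has 2 exons of 952 bases in all around an intron of 101 bases. Positions are those of the deposited table, and the sources used here do not give its genome build.

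Non-specific lipid-transfer protein 4 (orange1.1t01623) stood at RPKM 4.19 in the control, from 94 reads, and at 14.7 in light drought, from 318 reads. The light drought level was 3.50-fold the control level (log2 ratio 1.69, interval 1.47 to 2.15). Its place in the order was 10990 in the control and 5663 in light drought. The order of the pair was therefore reversed between libraries, protein 1 being the higher in the control and protein 4 in light drought. This gene has the same plan of 2 exons (683 bases) and an intron of 126 bases, and lies on unplaced sequence at 26903994 to 26904802. The deposited domain record differs from that of protein 1, naming a probable lipid transfer domain.

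Both members of fatty acid activation and elongation were lower in light drought. The 3-ketoacyl-CoA synthase (Cs4g06430), of the enzymes that catalyse the first step of very-long-chain elongation and set the chain length, was at RPKM 4.38 in the control and 1.13 in light drought. Read numbers were 272 and 68, and the log2 ratio was -1.58 (interval -2.36 to -1.56). It is the only gene with the ketoacyl-CoA synthase domain among the 2568 genes with deposited descriptions. The files do not tell which synthase of the family it corresponds to. Its 3 exons span 3966256 to 3969085 on chromosome 4, plus strand.

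Long chain acyl-CoA synthetase 1 (orange1.1t01720), whose Arabidopsis counterpart acts in wax and cutin synthesis, was the least abundant of the 6, at RPKM 2.35 in the control and 0.678 in light drought. These values rest on 233 and 65 reads. The log2 ratio of -1.27 (interval -2.21 to -1.39) became -0.997 with a pseudocount of 1, just short of 2-fold. It is also the longest gene model of the 6, with 17 merged exons (3018 bases) between 27717532 and 27725511 of the unplaced sequence, minus strand, listed in 149 exon records.

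The GDSL esterase/lipase (Cs4g10140), described after the Arabidopsis gene At5g55050, was the most abundant of the 6 in light drought, at RPKM 30.1 from 1212 reads. In the control it stood at 9.84, from 410 reads. The level was 3.06-fold higher in light drought (log2 ratio 1.56, interval 1.45 to 1.78), with place 7324 in the control and 3090 in light drought. Its 5 exons lie at 6784793 to 6788257 on chromosome 4, minus strand.

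ABC transporter G family member 22 (Cs6g13330), whose Arabidopsis counterpart is known for a part in stomatal control of water loss, was the most abundant of the 6 in the control, at RPKM 20.8 from 1675 reads. Light drought stems had 3.86, from 300 reads. The control level was 5.40-fold the light drought level (log2 ratio -2.29, interval -2.61 to -2.25). The gene has 10 exons at 14802404 to 14806439 on chromosome 6, plus strand.

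**Figure D2:**
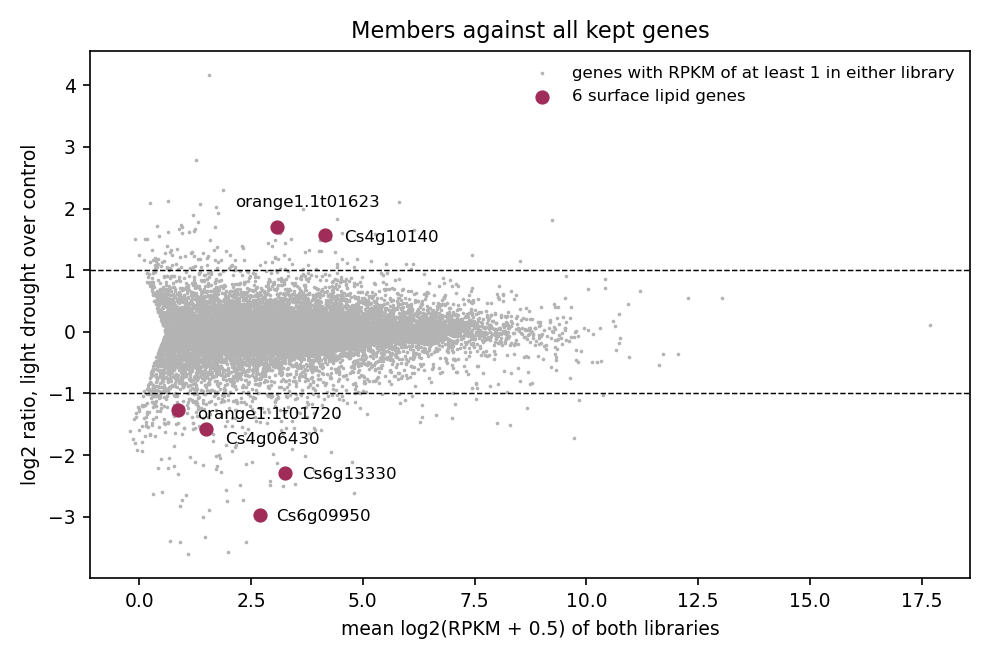
Log2 ratio of light drought over control (vertical axis) against the mean log2(RPKM + 0.5) of both libraries (horizontal axis) for the 15654 kept genes (grey) and the 6 surface lipid genes (coloured), with dashed lines at 2-fold. The members lie between -2.97 and 1.69, all outside the dashed lines, as their choice entails.

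The authors' deposited table gives statistics for all 6 genes, as it does for 3.54% of all genes deposited. In the authors' deposited table the log2 fold changes run from -3.28 for lipid-transfer protein 1 (Cs6g09950) to 1.81 for lipid-transfer protein 4 (orange1.1t01623). The authors' deposited table gives false discovery rates from 1.14e-28 for Cs6g09950 to 3.10e-08 for the acyl-CoA synthetase orange1.1t01720. For the 6 genes the log2 fold changes of the authors' deposited table differed from the plain log2 RPKM ratio by at most 0.0029. With 1 library per treatment these statistics compare 2 libraries, and the sources used here do not name the test behind them.

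Among genes matched by description text to 6 surface lipid lists, lower values were more frequent than higher ones, though the lists are short. A match of text does not show that a gene acts in surface lipids. Of 23 genes matched 20 were kept, of which 9 were lower, 2 higher and 9 under 2-fold. Without the 6 chosen genes, 14 were kept, 5 of them lower, none higher and 9 under 2-fold. The median log2 ratio of these 14 was -0.82. Among all 2055 kept genes with a description, 14.9% were lower and 5.99% higher, with a median of -0.23, against a median of 0.0024 over all 15654 kept genes. Of the 20 kept genes 5 reached the minimum in only 1 library, 3 of which counted as lower. Only the 2568 genes of the table that the authors name differential carry descriptions, so other family members are not in these counts. Matching by deposited domain instead of text, members included, gave 15 genes past 2-fold, 5 higher and 10 lower.

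**Figure D3:**
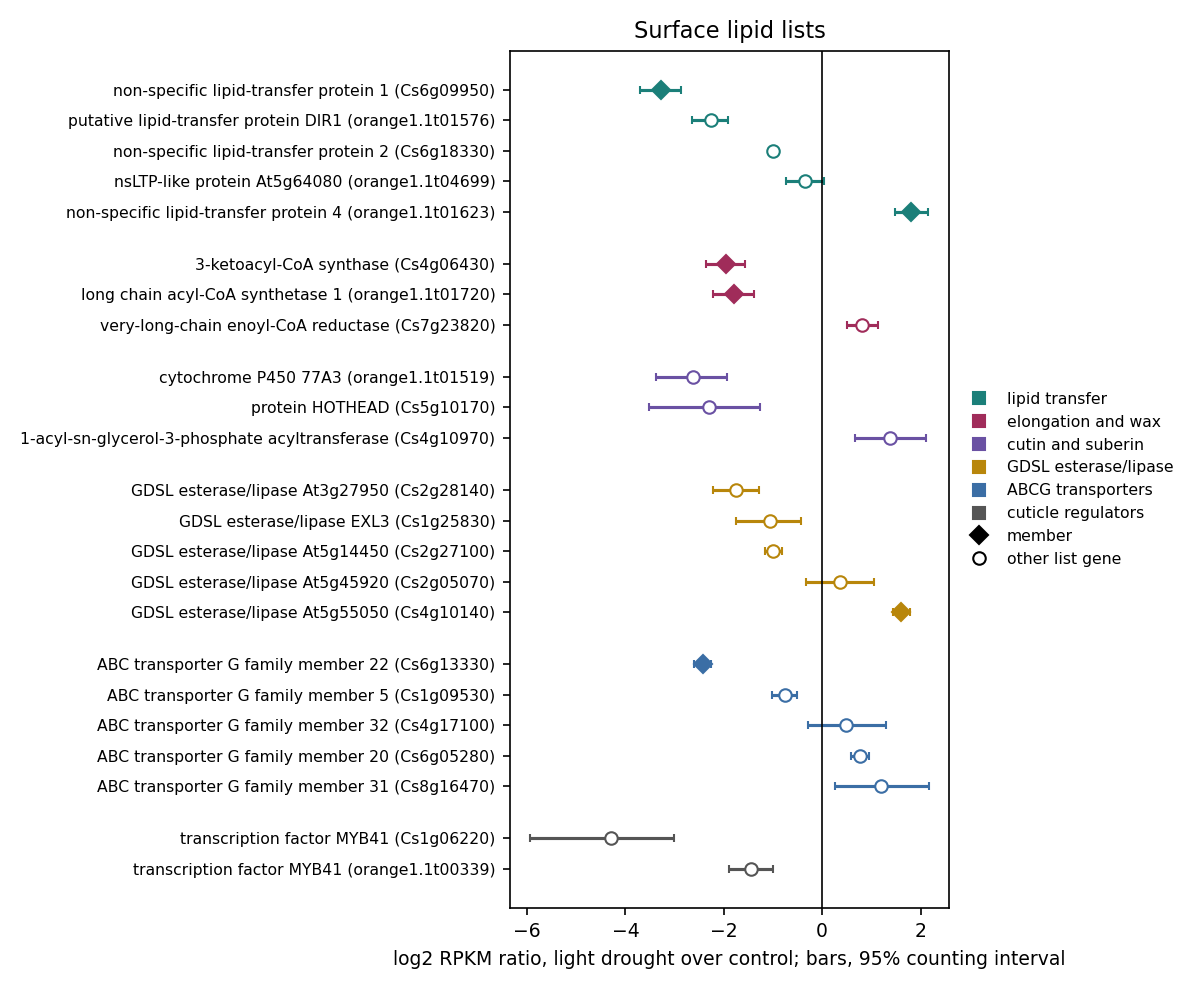
Log2 RPKM ratio of light drought over control, without pseudocount, for the 23 genes of the 6 surface lipid lists, with 95% counting intervals (horizontal bars). Filled diamonds are the 6 members and open circles the other 17 genes. Points to the left of 0 were lower in light drought, the farthest being a MYB41 gene.

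Of 5 lipid transfer genes, 2 were lower and 1 higher, with a median log2 ratio of -0.99. Putative lipid-transfer protein DIR1 (orange1.1t01576), named after an Arabidopsis protein of systemic defence signalling, was at RPKM 17.2 in the control and 3.58 in light drought (log2 ratio -2.12, interval -2.64 to -1.91). Non-specific lipid-transfer protein 2 (Cs6g18330) was the most abundant gene of the list, at RPKM 183 in the control and 91.7 in light drought. Its log2 ratio of -0.99 was just short of 2-fold, with a counting interval of -1.08 to -0.92. Lipid-transfer protein 4 was the only gene of the 5 with a ratio above 0. Among the 10 kept genes with the lipid transfer domain, found by deposited domain, 3 were higher and 4 lower.

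The elongation and wax list held both chain members and 1 gene on the other side of 0. Very-long-chain enoyl-CoA reductase (Cs7g23820), which catalyses the last step of each elongation cycle, stood at RPKM 2.35 in the control and 4.14 in light drought (log2 ratio 0.70, interval 0.50 to 1.14). The elongation enzymes named in the files thus lay on both sides of the control level, the condensing enzyme lower and the reductase above the control by less than 2-fold.

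In the cutin and suberin list 3 genes matched, and 1 of 2 kept genes was lower. Cytochrome P450 77A3 (orange1.1t01519), of a family with cutin-forming hydroxylases in Arabidopsis, was at RPKM 1.83 in the control and 0.296 in light drought, from 20 reads (log2 ratio -1.55, interval -3.39 to -1.94). Protein HOTHEAD (Cs5g10170), whose Arabidopsis namesake oxidises fatty acids for cutin, was under the minimum with RPKM 0.532 and 0.108. A 1-acyl-sn-glycerol-3-phosphate acyltransferase (Cs4g10970) was matched by its text, but such enzymes act in membrane and storage lipid synthesis, and its log2 ratio was 0.89.

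Of 5 GDSL genes 1 was lower, At3g27950-like Cs2g28140, at RPKM 3.41 in the control and 1.02 in light drought (log2 ratio -1.37). GDSL gene Cs2g27100 stood at 16.8 and 8.44 (-0.95), and the EXL3-like Cs1g25830 at 1.02 and 0.485 (-0.62). The GDSL member Cs4g10140 was the only gene of its list past 2-fold upward. Among 3 kept ABCG genes, member 22 was the only gene past 2-fold. ABC transporter G family member 5 (Cs1g09530) stood at 5.50 and 3.24 (-0.68), and member 20 (Cs6g05280), related to Arabidopsis transporters of suberin formation, at 3.82 and 6.51 (0.70).

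Both cuticle regulators matched are described as MYB41, a transcription factor that in Arabidopsis acts on cuticle and suberin genes, and both were lower in light drought. One of them (Cs1g06220) was at RPKM 2.36 in the control, from 101 reads, and 0.121 in light drought, from 5 reads (log2 ratio -2.20, interval -5.94 to -3.02). The second (orange1.1t00339) was at 2.81 and 1.03 (log2 ratio -1.11), from 163 and 58 reads. With 5 reads the light drought level of Cs1g06220 is poorly fixed.

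Markers of stem tissues could be matched only among the 2568 described genes, all from the authors' deposited table named for differential genes, in which 820 carry statistics, so markers outside that table could not enter. Their counts stand beside 14.9% lower and 5.99% higher among described kept genes, and 2.12% and 0.882% among all kept genes. Protodermal factor 1 (Cs7g17000), a gene of the outermost cell layer, where cuticle lipids are made, was at RPKM 5.88 in the control and 1.72 in light drought (log2 ratio -1.52, interval -2.16 to -1.40). The list matched by epidermis terms held 2 genes, 1 of them lower, with summed RPKM of 7.67 and 2.81. The second gene, protein trichome birefringence-like 33 (Cs6g17170, RPKM 1.79 and 1.09), was matched only by the word trichome. That word does not make it a marker of the epidermis. Genes matched by meristem and young organ terms, 3 of 6 lower, summed to 19.0 in the control and 8.64 in light drought. The most abundant was WUSCHEL-related homeobox 4 (Cs3g23280, RPKM 8.09 and 4.24), and another was axial regulator YABBY 5 (Cs4g18050). The rest, LOB domain-containing proteins 1, 4, 25 and 40, were matched by family name alone, which does not make them markers of young tissue. Genes matched by xylem and secondary wall terms, with 1 of 6 kept genes lower among 8 matched, summed to 115 and 68.6. Most of that sum came from cellulose synthase A subunits 2 (Cs3g21530, RPKM 42.9 and 21.3) and 1 (Cs7g05150, 40.2 and 30.5), which in Arabidopsis are known from primary walls. Of 25 photosynthetic genes 24 had ratios above 0, but only 1 was past 2-fold upward and 1 downward. The 25 genes summed to 645 and 929. The 4 genes matched by phloem terms summed to 6.77 and 7.70. Among them, the SIEVE ELEMENT OCCLUSION B genes Cs3g07110 and Cs5g11280 had log2 ratios of -0.82 and 0.31. The others are described as putative F-box protein PP2-B12 (Cs9g10740, 0.05) and lectin (Cs2g10930, 0.43). No gene of these 5 lists was at 0 in either library. In bulk stems, fewer cells of a type and less RNA per cell cannot be told apart, and the part of tissue makeup in the values of the 6 genes was not tested.

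The described genes closest to each member in both libraries were found by Euclidean distance of log2(RPKM + 0.5) over 2 libraries. For ABC transporter G family member 22 they were organ-specific protein S2 (Cs8g06620), at a distance of 0.17, and the lipid-transfer protein DIR1, at 0.28. Closest to lipid-transfer protein 1 were an uncharacterized gene (Cs3g01480, 0.46) and a gene with a lecithin:cholesterol acyltransferase domain (Cs7g18040, 0.51). For lipid-transfer protein 4 they were orange1.1t02791 (0.11) and CASP-like protein 1D1 (Cs9g04890, 0.16). A peroxidase (Cs1g20230, 0.16) and Cs2g30410 (0.15) were closest to the ketoacyl-CoA synthase. Cs4g20010 (0.042) and orange1.1t01578 (0.051) were closest to the acyl-CoA synthetase, and Cs4g02470 (0.16) and Cs2g02110 (0.17) to the GDSL gene. With 2 values per gene such likeness says only that levels and ratio are alike.

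The members were scattered, 2 on chromosome 4, 2 on chromosome 6 and 2 on unplaced sequence, and none had a described gene of its own family within 10 gene models on either side. Only 12 of those 120 gene models carried a description, so families could be read for few of them. Of the 12 gene models next to a member 9 were kept, 1 of them lower and 1 higher. The lower gene, Cs6g13326, ends 2995 bases before ABC transporter G family member 22 on the same strand. It was at RPKM 68.9 in the control, from 1136 reads, and 10.9 in light drought, from 173 reads (log2 ratio -2.61, interval -2.91 to -2.43). The model on the other side of the transporter, Cs6g13340, begins 200 bases beyond it on the opposite strand and stood at 11.7 and 10.1 (-0.20). The higher gene, 5'-adenylylsulfate reductase 3 (Cs4g10150), an enzyme of sulfate assimilation, lies 25388 bases from the GDSL gene and was at 0.454 and 1.60 (1.14). Within 5 gene models of a member, 37 of 60 were kept, and 2 of these were lower and 1 higher, beside 2.12% lower and 0.882% higher over all kept genes. The further lower gene was ethylene-responsive transcription factor ERF017 (Cs4g06410), 10159 bases from the ketoacyl-CoA synthase, at RPKM 1.59 in the control and 0.157 in light drought, from 4 reads.

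**Figure D4:**
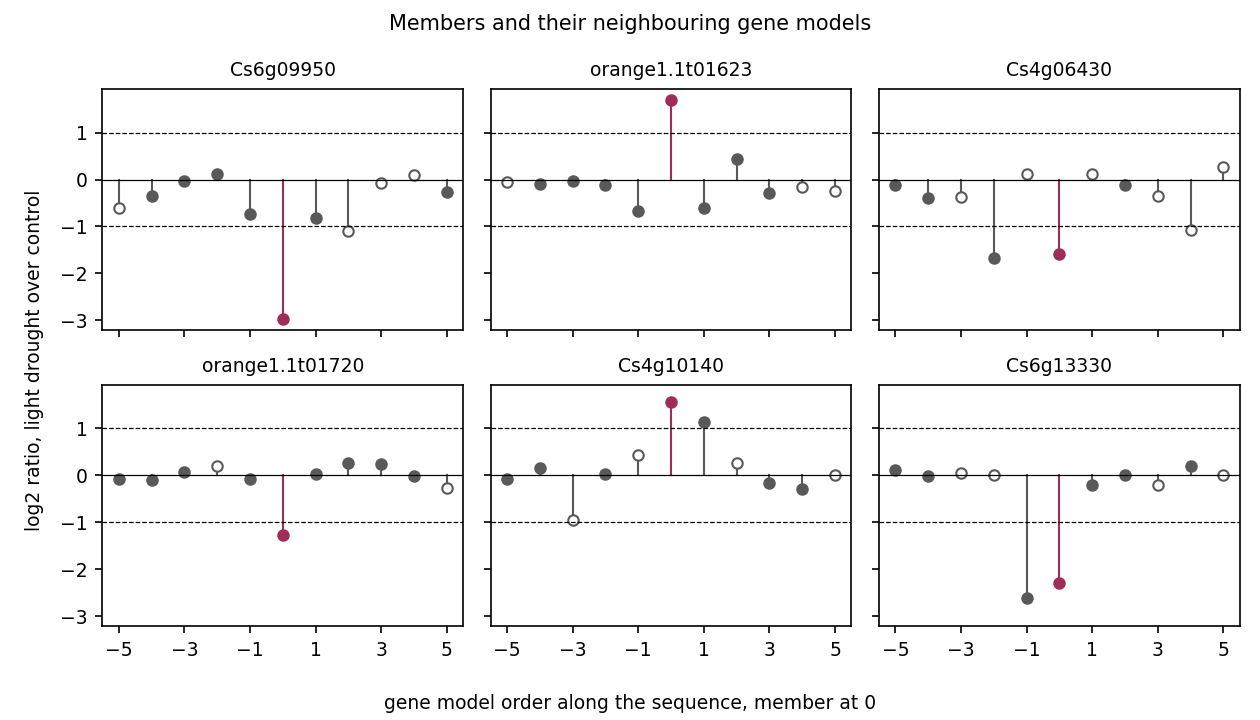
Log2 ratio of light drought over control (vertical axis) for each member (coloured, at 0) and the 5 gene models on either side in order along the sequence (horizontal axis). Open circles are gene models under the minimum RPKM of 1, and dashed lines mark 2-fold. Beside Cs6g13330 the model at -1, Cs6g13326, lies at -2.61, while the other kept neighbours of that gene lie inside the lines.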

How the data were processed

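Per the labels' protocols, RNA extracted with TRIzol (2 µg) was made into libraries with a stranded mRNA kit. The submitters' processing notes name Trimmomatic 0.36, and the sources used here give no aligner, counter, genome build or strand setting. RPKM values were deposited by the authors for 23159 genes. The authors' deposited table also holds p-values, false discovery rates and log2 fold changes for 820 of 2568 described genes. Other values in it are gene length and annotation, as deposited.

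Multiplying RPKM by length recovered whole reads (to within 0.01 read) for 100% of nonzero values, and the interval of each ratio is an exact conditional (Clopper-Pearson) interval of these reads. Without molecular identifiers, reads need not be separate molecules. Many genes with few reads had even numbers in both libraries, such as Cs4g01020 (8 and 2) and Cs4g04410 (6 and 6). Others had odd numbers, such as Cs4g08380 (3 and 1). Whether the 2 mates of a read pair were counted apart was not tested. If they were, the intervals are too narrow, since they treat each read as independent. No p-value was computed, as each group has 1 library. The intervals and counts were tested on simulated data. These held independent Poisson counting error alone, which is the error the intervals assume. They therefore say nothing of reads that come in pairs or of variation among trees.

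The members, lists and alternatives were chosen with earlier results of these data known. Named by rule were the 6 members, up to 4 kept genes of each surface lipid list by absolute log2 ratio and the most abundant, and for each member the 2 described genes closest in level. Of the adjoining gene models only those past 2-fold were named, with Cs6g13340 for contrast, so their naming followed their values. The other adjoining gene models appear only in the plot of ratios in order along the sequence. Among marker genes, the epidermis, phloem, and meristem and young organ lists were named in full. From the xylem and secondary wall list only the cellulose synthase genes were named, outside the rule. HOTHEAD, ERF017, Cs6g07210, Cs6g07220 and the other genes found by domain were named after their values were seen. The reference table matched 0 of 23159 identifiers and was not used. Pseudocount, filter, threshold and scaling were varied in turn. The tools were Python 3.11.15 with pandas 2.3.3, scipy 1.17.1, numpy 2.4.6 and, for plots, matplotlib 3.10.9.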

Additional observations from a re-analysis of the deposited data

How the results depend on the processing

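No paired analysis was possible because there is 1 library per treatment, and for that reason none could be left out. All 24 log2 ratios of the 6 members under the 4 other pseudocounts and scalings kept their sign and moved by less than the distance from the middle to the end of their counting interval. With a pseudocount of 1 the acyl-CoA synthetase missed 2-fold, which left 5 members past it. Of the counts in the text (6 members, 11 list genes and 470 of all kept genes past 2-fold), a minimum RPKM of 5 gave 2 lower members, 5 list genes with 3 lower, and 227 of all genes (68 higher, 159 lower), because fewer genes were kept. By construction, a threshold of 4-fold gave 2 members (0 higher, 2 lower), 4 list genes (0 higher, 4 lower) and 52 of all genes (8 higher, 44 lower), and one of 1.5-fold gave 18 list genes (5 higher) and 1596 of all genes (631 higher, 965 lower). For all kept genes, a pseudocount of 0.1 gave 208 higher and a pseudocount of 1 gave 292 (88 higher, 204 lower). By arithmetic, a smaller pseudocount widens each log2 ratio and a larger one narrows it. Rescaling to equal sums gave 513 lower, from 16563 genes kept with a median log2 ratio of -0.041. How far the added genes and the shifted median account for that count was not tested. Leaving the 6 members out of the lists gave 5 genes (0 higher, 5 lower). Matching by deposited domain, members included, gave 15 genes (5 higher, 10 lower). Both of these settings were added after the data were seen. Depth limits genes with few reads in light drought, such as the MYB41 gene Cs1g06220 with 5, ERF017 with 4 and Cs1g16000 with 0.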

Other observations

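Genes found by the deposited protein domains of the members, rather than by description text, add surface lipid candidates without a name. This search was added after the data were seen. The lipid transfer domain was recorded for 11 described genes, of which 10 were kept, 4 lower and 3 higher, with a median log2 ratio of -0.74. Among all described kept genes 14.9% were lower and 5.99% higher, and among all kept genes 2.12% and 0.882%. Of these 11, 6 were in no text list. Besides lipid-transfer protein 4, the 2 other higher genes with this domain are neighbours on chromosome 6, Cs6g07210 (9089276 to 9091767) and Cs6g07220 (9094380 to 9095771), both on the minus strand and 2612 bases apart. Cs6g07210 was at RPKM 2.61 in the control, from 56 reads, and 7.46 in light drought, from 155 reads (log2 ratio 1.36, interval 1.07 to 1.99). Cs6g07220 was at 1.13 and 3.22 (log2 ratio 1.19, interval 1.02 to 2.02). Both were therefore higher in light drought by a similar log2 ratio. Among the lower ones, Cs5g24670 had 410 reads in the control and 118 in light drought (-1.65) and Cs5g12850 at 26.3 and 12.6 (-1.04). The most abundant gene with the domain, described as an extensin (Cs6g11570), a cell wall protein, stood at RPKM 1421 and 1013 (-0.49).

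The GDSL domain was recorded for 7 genes, of which 6 were kept, 2 lower and 1 higher. Beside these counts stand 14.9% lower and 5.99% higher among described kept genes, and 2.12% and 0.882% among all kept genes. Cs2g27090 and Cs2g27100, adjoining GDSL genes on chromosome 2 on the same strand and 4312 bases apart, both had ratios below 0. Cs2g27090 was at RPKM 6.29 and 2.59 (-1.14), past 2-fold, and Cs2g27100 just short of it. A GDSL gene under the minimum RPKM, Cs1g16000, had 38 reads in the control and 0 in light drought. Its control level was 12.2-fold a floor of 3 reads in the light drought library. That figure leaves out the counting error of the 38 reads, and the upper end of its log2 interval was -3.25. Of 6 genes with the AMP-binding domain, which the acyl-CoA synthetase shares with enzymes outside surface lipid synthesis, 3 were kept. Probable acyl-activating enzyme 9 (Cs3g20340) was at RPKM 3.34 and 1.12 (-1.24), and 4-coumarate--CoA ligase 1 (orange1.1t04489), an enzyme of phenylpropanoid synthesis, at 6.25 and 14.8 (1.18). Of 8 genes with the ABC-2 membrane domain 5 were kept, and ABC transporter G family member 22 was the only gene of these past 2-fold.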
